A study of Homo sapiens with 12 samples.

Results

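Ribosomal protein (RP) genes encode the protein parts of the cytosolic ribosome, a large subunit (RPL genes) that joins amino acids and a small subunit (RPS genes) that reads the mRNA. They were taken here by their symbols in the deposited expression table, as RPL or RPS followed by a number and at most 1 letter or the suffix of an L-paralogue, with RPLP0, RPLP1, RPLP2 and RPSA added and with ribosomal S6 kinases and pseudogenes left out. This gave 85 of the 22784 symbols in the table, 53 of the large subunit and 32 of the small subunit. Of these, 81 passed the filter on low values (a normalized count of at least 10 in at least 3 libraries), as did 14839 symbols in all.

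SK-UT-1 is an established human cell line from a uterine leiomyosarcoma, a malignant tumor of uterine smooth muscle. The cells received the DMSO vehicle (VEH), 5 µM JQ1 or 5 µM I-BET 762 for 48 h, and total RNA was sequenced. Both compounds are BET inhibitors (BETis), which compete with acetylated lysine for the bromodomain pocket of the BET proteins, and both hold a triazole ring fused to a diazepine, next to a thiophene in JQ1 and a benzene in I-BET 762. The labels list 12 samples, 4 per group, and 10 had a column of values: VEH replicates 13, 14 and 15, JQ1 replicates 17, 18, 19 and 20, and I-BET 762 replicates 21, 22 and 23. All of them are samples of 1 cell line, and no label says whether they were separate cultures, so p-values measure only the spread between these samples.

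Growing cells make RPs in near-equal numbers, and their mRNAs are among the most abundant in the cell. Most of these mRNAs start with a C followed by a run of C and U (a 5′ terminal oligopyrimidine, or TOP, start), through which mTOR signaling sets how well they are translated. A few RPs have an L-paralogue, a sister gene, and some of these are used mainly in certain tissues, such as RPL3L in heart and skeletal muscle. RPs that are not built into ribosomes, RPL5 and RPL11 above all, can bind and inhibit MDM2, the ubiquitin ligase of p53.

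The sequences around the start show what most members share and the naming rule did not use. RefSeq starts (GRCh38.p14) were held for 68 of the 85 members. At 47 of these (69.1%), at least 1 start was a C that opened a run of 5 or more C or T, against 5.14% of all 27305 symbols with a RefSeq start and 6.64% of the other tested symbols. Windows of 30 bases, 15 before the start and 15 from the start on, are printed for members on which the results turn. The first 5 were DEGs with JQ1, the next 3 had no call with either inhibitor, and the rest are 4 L-paralogues, 3 of them with the parent gene. Capitals mark the unbroken run of C and T from the annotated start, and where a window has no capitals the base at that start is A or G.
RPL36, chr19:5690280-5690309 (+): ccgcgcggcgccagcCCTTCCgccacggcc
RPL28, chr19:55385917-55385946 (+): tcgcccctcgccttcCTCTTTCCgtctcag
RPLP0, chr12:120201097-120201126 (-): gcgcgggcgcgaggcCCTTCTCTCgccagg
RPLP1, chr15:69452803-69452832 (+): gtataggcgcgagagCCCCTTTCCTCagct
RPS28, chr19:8321481-8321510 (+): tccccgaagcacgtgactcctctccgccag
RPS24, chr10:78033848-78033877 (+): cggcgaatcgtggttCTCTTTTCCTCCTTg
RPSA, chr3:39406705-39406734 (+): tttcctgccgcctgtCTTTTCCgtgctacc
RPL29, chr3:51995881-51995910 (-): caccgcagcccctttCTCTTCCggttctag
RPL22, chr1:6199581-6199610 (-): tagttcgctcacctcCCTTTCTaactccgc
RPL22L1, chr3:170870181-170870210 (-): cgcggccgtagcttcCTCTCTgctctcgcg
RPS27, chr1:153990747-153990776 (+): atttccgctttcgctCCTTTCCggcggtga
RPS27L, chr15:63157463-63157492 (-): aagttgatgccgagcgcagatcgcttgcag
RPL36A, chrX:101390996-101391025 (+): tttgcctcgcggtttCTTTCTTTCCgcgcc
RPL36AL, chr14:49620612-49620641 (-): ctgtttcttccctttCCTgttaggcgagag
RPL7L1, chr6:42879601-42879630 (+): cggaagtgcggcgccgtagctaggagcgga
RPS28, RPS27L and RPL7L1 start with a purine and RPL36AL has a run of 3, whereas RPS24, RPSA and RPL29, which had no call, have a run as RPL36 and RPL28 do. RPL22L1 has a run of 6, close to the run of 7 in RPL22.

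On the authors' scaling of the libraries, both BETis raised the level of most RP mRNAs, by a small and uneven amount (see the plot of member changes). With JQ1, 66 of the 81 tested members rose against VEH at an adjusted p-value under 0.05 (limma, Benjamini-Hochberg over all 14839 symbols) and 2 fell, RPL39L and RPL7L1. That is 81.5% of the members rising, where 36.0% of all tested symbols rose and 35.6% fell. I-BET 762 raised 50 members (61.7%, against 29.9% of all tested symbols) and lowered 2, RPL39L and RPL22L1 (31.3% of all symbols fell). All 50 that rose with I-BET 762 also rose with JQ1, and both comparisons use the same 3 VEH libraries. The median change over the tested members was a log2 fold change of 0.36 with JQ1 (1.28-fold) and 0.22 with I-BET 762 (1.16-fold), whereas over all tested symbols it was 0.01 and 0.00. The middle 50% of the members lay between 0.22 and 0.47 with JQ1 and between 0.13 and 0.30 with I-BET 762, a narrower band than that of all tested symbols, which ran from -0.54 to 0.37 and from -0.42 to 0.28.

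**Figure D1:**
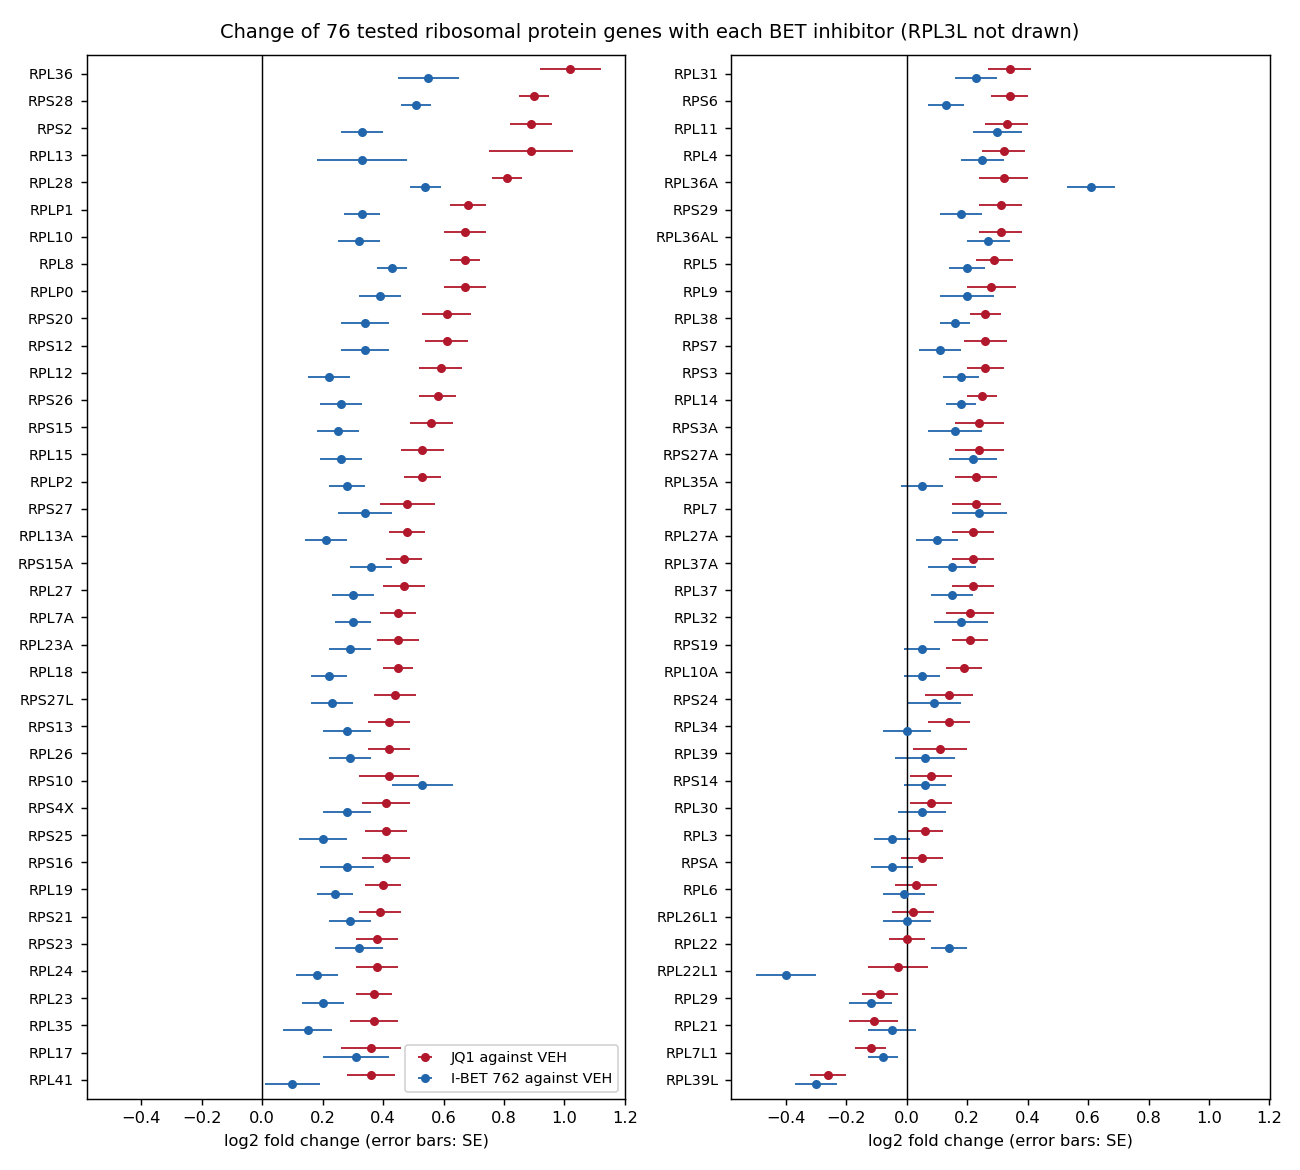
Log2 fold change (horizontal axis, with bars of 1 SE) of 76 tested ribosomal protein genes with JQ1 (red) and I-BET 762 (blue) against VEH, in order of the change with JQ1. RPL3L, at 3.44 with each inhibitor, is among the 5 not drawn. Of the 81 tested members, 76 lie above 0 with JQ1 and 72 with I-BET 762, and 74 have the larger value with JQ1.

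Few members passed the stricter call, a differentially expressed gene (DEG) that moved more than 1.5-fold as well as passing the test. With JQ1, 14 members were DEGs, all higher, which is 17.3% of those tested and near the 13.3% of all symbols that were higher DEGs. No member was a lower DEG with JQ1, where 22.8% of all symbols were, and the lowest change of a member was -0.26, so that the fold threshold alone kept the count at 0 in limma, whatever the p-value. With I-BET 762, RPL3L and RPL36A were higher DEGs (2.47% of the tested members, under the background of 8.96%) and no member was a lower DEG, against 17.9% of all symbols. Without VEH replicate 13 the 2 DEGs became 1. Counted by library with no test, every JQ1 library lay above every VEH library for 64 members (79.0%, against 34.1% of all symbols) and below for RPL39L alone (background 34.3%). Every I-BET 762 library lay above VEH for 59 members (72.8%, against 34.8%) and below for 3, RPL22L1, RPL29 and RPL39L (background 36.2%), of which RPL29 did not pass the test.

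These calls depend on how the libraries were scaled. The authors' size factors were 1.032 to 1.099 in VEH and 0.91 to 1.0 in JQ1. After rescaling to equal library totals, the median of all tested symbols moved to -0.18 with JQ1 and -0.10 with I-BET 762. The members' median was then 0.17 and 0.12. Relative to the median of all symbols it was 0.35 and 0.22 under either scaling, which holds by construction, since rescaling shifts all genes of a library alike. Under equal totals 47 members rose (58.0%, against 23.8% of all tested symbols) and 10 fell with JQ1. With I-BET 762, 33 rose (40.7%, against 22.7%) and 6 fell. Of all 14839 symbols, 6904 then fell with JQ1 and 5664 with I-BET 762. The 14 DEGs with JQ1 became 6, where 1222 of all symbols were higher DEGs. The change turned from positive to negative for 10 members with JQ1 and 8 with I-BET 762, of which 0 had been called.

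The share of all normalized counts that fell on the 85 members does not use any scaling factor. It was 4.55%, 4.74% and 4.67% in the VEH libraries (mean 4.65% ± 0.0981, SD, n = 3). In the JQ1 libraries it was 5.41%, 5.66%, 5.43% and 5.07% (5.39% ± 0.244, n = 4), and in the I-BET 762 libraries 5.21%, 5.06% and 4.84% (5.04% ± 0.187, n = 3). Every treated library thus lay above every VEH library, and the JQ1 and I-BET 762 libraries overlapped. No test was run on the share.

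**Figure D2:**
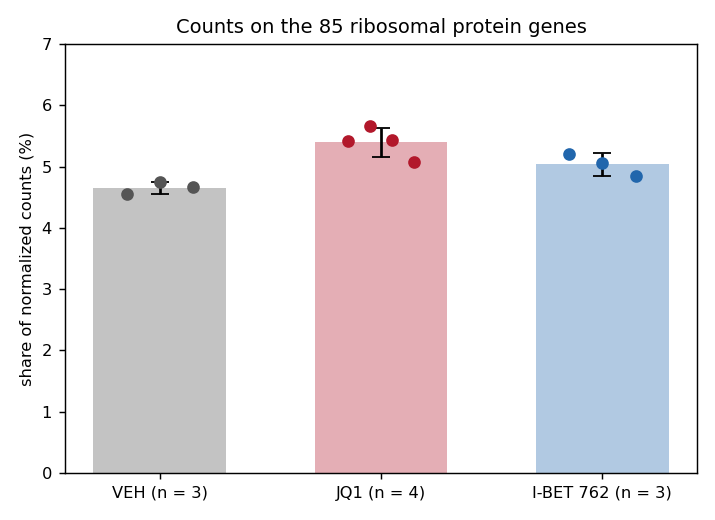
Share of normalized counts (vertical axis, %) on the 85 ribosomal protein genes, with a point per library, bars at the group means and error bars of 1 SD. The VEH libraries sit between 4.55% and 4.74%, below the 4.84% to 5.66% of the treated libraries.

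The libraries of a group moved together over the members. JQ1 replicate 18 held the highest JQ1 value of 61 of the 81 tested members, and VEH replicate 13 the lowest VEH value of 67. Among the I-BET 762 libraries, replicate 21 was highest for 66 members and replicate 23 lowest for 74. The members thus shared library effects and are not replicates of each other. Against the VEH mean, the median member stood at 0.32, 0.50, 0.31 and 0.24 (log2) in JQ1 replicates 17 to 20 and at 0.27, 0.23 and 0.14 in I-BET 762 replicates 21 to 23. All 7 medians were above those of the VEH libraries, which were -0.06, 0.05 and 0.02. Leaving out any 1 library gave a median of 0.32 to 0.39 with JQ1 and 0.19 to 0.26 with I-BET 762.

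Among the large-subunit members the strongest JQ1 response of an abundant gene was that of RPL36 (ENSG00000130255.13, chromosome 19, 5674947 to 5691875, plus strand), a component found only in eukaryotic ribosomes. Its normalized counts were 11321, 12200 and 12212 in VEH, 28934, 23239, 26215 and 19190 with JQ1, and 17974, 17522 and 16708 with I-BET 762. The groups did not overlap, with I-BET 762 between VEH and JQ1. The log2 fold change was 1.02 ± 0.10 (SE) with JQ1 (adjusted p = 1.13e-07, limma) and 0.55 ± 0.10 with I-BET 762 (adjusted p = 0.000275, limma). JQ1 exceeded I-BET 762 by 0.47 (95% interval 0.27 to 0.68, adjusted p = 0.00225, limma). All 75-base stretches of its mRNA are unique in the genome.

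RPL28, another protein of the eukaryotic large subunit, was one of the steadiest. It read 9643, 9526 and 8964 in VEH, 16078, 16456, 17215 and 15936 with JQ1, and 13819, 13591 and 13341 with I-BET 762. The 3 groups were again apart. The log2 fold change was 0.81 ± 0.05 with JQ1 (adjusted p = 2.15e-10, limma) and 0.54 ± 0.05 with I-BET 762 (adjusted p = 1.29e-07, limma), the latter under the 1.5-fold threshold of a DEG.

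RPL13 also rose with JQ1, by 0.89 ± 0.14, but its libraries were less even. They held 56215, 38445, 54468 and 32938 normalized counts with JQ1, against 21550, 24341 and 26206 in VEH. JQ1 replicates 17 and 19 thus stood well above replicates 18 and 20. With I-BET 762 its counts were 30593, 31060 and 28979, above every VEH library, and the change of 0.33 ± 0.15 missed the threshold (adjusted p = 0.0654, limma). It passed when only the I-BET 762 and VEH libraries were fitted (adjusted p = 2.56e-05), which leaves out the uneven JQ1 libraries.

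The 3 mRNAs of the ribosomal stalk, which RPLP0, RPLP1 and RPLP2 form on the large subunit and which recruits the elongation factors, all rose. RPLP0 is among the most abundant members, with 67107, 69846 and 66981 normalized counts in VEH, 99537, 122037, 106225 and 106490 with JQ1, and 94362, 89638 and 84003 with I-BET 762. Its log2 fold change was 0.67 ± 0.07 and 0.39 ± 0.07. RPLP1 gave 0.68 ± 0.06 and 0.33 ± 0.06, and RPLP2 gave 0.53 ± 0.06 and 0.28 ± 0.06. All 3 passed the test with each inhibitor (adjusted p from 3.11e-08 to 0.001, limma), and all 3 were higher with JQ1 than with I-BET 762, by 0.25 to 0.35. The RPLP0 difference lost its call without I-BET 762 replicate 23 (0.24, adjusted p = 0.0563). RPL12, at the base of the stalk, rose by 0.59 ± 0.07 with JQ1 and by 0.22 ± 0.07 with I-BET 762, the latter a call that was lost without VEH replicate 13 (0.17) or I-BET 762 replicate 21 or 22 (0.20 each), with no intensity trend, and under equal totals (0.12). Of RPL8 and RPL3, which both reach near the peptidyl transferase center, RPL8 rose with JQ1 by 0.67 ± 0.05, whereas RPL3 gave 0.06 ± 0.06 (adjusted p = 0.37, limma). RPL10, one of the last proteins to join the large subunit, rose by 0.67 ± 0.07, although 53.7% of its exon bases overlap genes on the opposite strand and the strand setting of the counting is not stated.

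In the small subunit all 29 tested members had a positive change with JQ1 and 26 passed the test, with a median of 0.41, against 40 of 52 and a median of 0.33 in the large subunit. With I-BET 762 the figures were 21 of 29 and a median of 0.25 for the small subunit, and 29 of 52 and 0.20 for the large. The difference between the subunits was not tested. RPS28, a small protein near the mRNA exit channel, rose most steadily, from 3757, 3862 and 3654 normalized counts in VEH to 7329, 7062, 7258 and 6483 with JQ1 and 5568, 5280 and 5172 with I-BET 762. Each group was apart from the others. Its log2 fold change was 0.90 ± 0.05 (adjusted p = 2.07e-10, limma) and 0.51 ± 0.05 (adjusted p = 7.97e-07, limma), and 27.4% of its exon bases overlap KANK3 on the opposite strand.

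RPS2, which lines the mRNA entry channel, differed between the inhibitors. It had 62749, 64816 and 61282 normalized counts in VEH, 120802, 111330, 127227 and 106853 with JQ1, and 82594, 78827 and 76677 with I-BET 762. JQ1 raised it by 0.89 ± 0.07 and I-BET 762 by 0.33 ± 0.07, a difference of 0.55 (95% interval 0.41 to 0.69, adjusted p = 2.45e-05, limma). Only 39.2% of its 75-base stretches are unique in the genome, because of pseudogene copies. RPS12 and RPS20, also of the small subunit, were DEGs with JQ1 at 0.61 ± 0.07 and 0.61 ± 0.08, and each rose by 0.34 with I-BET 762 without reaching 1.5-fold.

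Not every abundant RP mRNA passed the test. Of the 81 tested members, 12 passed the test with neither inhibitor: RPL3, RPL6, RPL21, RPL22, RPL26L1, RPL29, RPL30, RPL34, RPL39, RPS14, RPS24 and RPSA. RPSA, a small-subunit protein also known as a laminin receptor, had 47226, 49705 and 45391 normalized counts in VEH, 44877, 54479, 49806 and 47307 with JQ1, and 49326, 45673 and 42969 with I-BET 762. Its groups overlapped, with changes of 0.05 (95% interval -0.10 to 0.19) and -0.05 (-0.20 to 0.11), which leave room for a rise of up to 0.19. Only 33.2% of the 75-base stretches of RPSA are unique in the genome. RPS24 gave 0.14 (-0.04 to 0.31) with JQ1, and RPL29 gave -0.09 (-0.22 to 0.04). RPL21 gave -0.11 (-0.28 to 0.06), and none of its 75-base stretches is unique, so its value cannot be told apart from that of its copies. Under equal totals, 6 of these 12 passed as lower with JQ1, RPL21 at -0.30, RPL29 at -0.28, RPL22 at -0.18, RPL26L1 at -0.16, RPSA at -0.14 and RPL3 at -0.13. RPL21 and RPL29 also passed as lower without JQ1 replicate 18, at -0.19 and -0.13. With only the I-BET 762 and VEH libraries fitted, RPL22 passed as higher (0.14) and RPL29 as lower (-0.12).

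RPL5 and RPL11 encode RPs that can bind MDM2 when free, and only their mRNA was measured here. RPL5 read 29713, 33086 and 31447 normalized counts in VEH, 37415, 42600, 38003 and 35982 with JQ1, and 36634, 36223 and 35022 with I-BET 762. RPL11 read 27818, 30430 and 31294 in VEH, 36200, 43478, 36099 and 35136 with JQ1, and 37832, 37799 and 34305 with I-BET 762. Each treated library of both genes lay above each VEH library, and the treated groups overlapped. RPL5 rose by 0.29 ± 0.06 and 0.20 ± 0.06, and RPL11 by 0.33 ± 0.07 and 0.30 ± 0.08. The I-BET 762 call on RPL5 was lost without VEH replicate 13 (0.16), without I-BET 762 replicate 21 (0.18) and under equal totals (0.10). RPS6, the substrate of the S6 kinases, rose with JQ1 by 0.34 ± 0.06 and gave 0.13 ± 0.06 with I-BET 762 (adjusted p = 0.0842, limma). With I-BET 762 RPS6 passed as higher with the 2 groups alone or without JQ1 replicate 18 or 20 (0.13 each), and with the GC trend removed (0.11). RPS19, the gene most often mutated in Diamond-Blackfan anemia, rose with JQ1 by 0.21 ± 0.06 (0.02 and not called under equal totals) and gave 0.05 ± 0.06 with I-BET 762 (adjusted p = 0.533, limma).

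The L-paralogues were mixed (see the plot of paralogue pairs). Of the 7 that were tested, 3 rose with JQ1 and 2 fell, where 63 of the 74 other members rose and 0 fell, a difference that was not tested. RPL3L (ENSG00000140986.8, chromosome 16, 1943974 to 1957606, minus strand) had the largest fold of any member from a very low level. It had 3.87, 1.85 and 9.10 normalized counts in VEH (4, 2 and 10 reads), 79.1, 45.7, 51 and 50.7 with JQ1, and 51.2, 53.1 and 63.0 with I-BET 762. Every treated library exceeded every VEH library, and the treated groups overlapped. The log2 fold change was 3.44 ± 0.34 with JQ1 (adjusted p = 1.94e-07, limma) and 3.44 ± 0.37 with I-BET 762 (adjusted p = 7.70e-07, limma), on the scale of log2(normalized count + 1), which understates folds at such levels. The difference between the inhibitors was -0.01, with a 95% interval of -0.73 to 0.72. RPL3, its abundant parent, held 36468 to 45501 normalized counts over all libraries, so RPL3L remained a trace beside it.

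RPL39L, a paralogue of the exit-tunnel protein RPL39 that is most used in testis, fell with both inhibitors. Its normalized counts were 1467, 1556 and 1554 in VEH, 1230, 1390, 1333 and 1168 with JQ1, and 1291, 1227 and 1205 with I-BET 762. All treated libraries were below all VEH libraries. The change was -0.26 ± 0.06 (adjusted p = 0.00183, limma) and -0.30 ± 0.07 (adjusted p = 0.00124, limma), while RPL39 gave 0.11 ± 0.09 and 0.06 ± 0.10 with groups that overlapped.

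RPL22L1, which can take the place of RPL22, fell with I-BET 762 and did not pass the test with JQ1. It had 4987, 5829 and 6376 normalized counts in VEH, 6229, 6120, 5590 and 4561 with JQ1, and 4317, 4537 and 4101 with I-BET 762. The I-BET 762 libraries were below all others, and the JQ1 and VEH libraries overlapped. The change was -0.40 ± 0.10 with I-BET 762 (adjusted p = 0.00292, limma) and -0.03 ± 0.10 with JQ1 (adjusted p = 0.789, limma). The inhibitors differed by 0.37 (95% interval 0.17 to 0.57, adjusted p = 0.00938, limma), and this call was lost without I-BET 762 replicate 23 (0.34, adjusted p = 0.0536). RPL22 gave 0.00 ± 0.06 with JQ1 and 0.14 ± 0.06 with I-BET 762, neither past the threshold. With I-BET 762 RPL22 passed as higher with equal upper quartiles (0.15), the 2 groups alone or without JQ1 replicate 18 (0.14 each), and with the GC trend removed (0.12). With JQ1 RPL22 passed as lower under equal totals (-0.18).

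RPS27L, a p53 target by textbook knowledge, rose by 0.44 ± 0.07 with JQ1 and 0.23 ± 0.07 with I-BET 762, beside 0.48 ± 0.09 and 0.34 ± 0.09 for RPS27. RPL36AL rose by 0.31 ± 0.07 and 0.27 ± 0.07. Under equal totals the JQ1 calls on RPL36AL (0.12) and RPL36A (0.13) were lost. RPL36A, the parent gene, rose by 0.32 ± 0.08 and 0.61 ± 0.08, the only 1 of the 81 tested members that passed as lower with JQ1 than with I-BET 762, by -0.29 (adjusted p = 0.0107, limma). That call was lost without I-BET 762 replicate 23, at -0.27 (adjusted p = 0.0514). RPL36A read only 350 to 571 normalized counts, and 43.8% of its exon bases also belong to the read-through gene RPL36A-HNRNPH2. RPL7 rose by 0.23 ± 0.08 and 0.24 ± 0.09, while RPL7L1 fell by 0.12 with JQ1 (SE 0.05, adjusted p = 0.0316, limma), a call lost without VEH replicate 14 or 15 or without JQ1 replicate 17 or 19 (-0.09 to -0.11). The calls on RPL7 were as fragile, lost without VEH replicate 13 with JQ1 (0.19) and I-BET 762 (0.20), for I-BET 762 also without VEH replicate 15 (0.25) or I-BET 762 replicate 21 or 22 (0.23 each), and for both with no intensity trend and under equal totals (0.05 and 0.15). RPL26 rose by 0.42 ± 0.07 and 0.29 ± 0.07, and RPL26L1 gave 0.02 ± 0.07 and 0.00 ± 0.08. RPL10L, a testis paralogue, had 0 reads in 9 of the 10 libraries and was not tested.

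**Figure D3:**
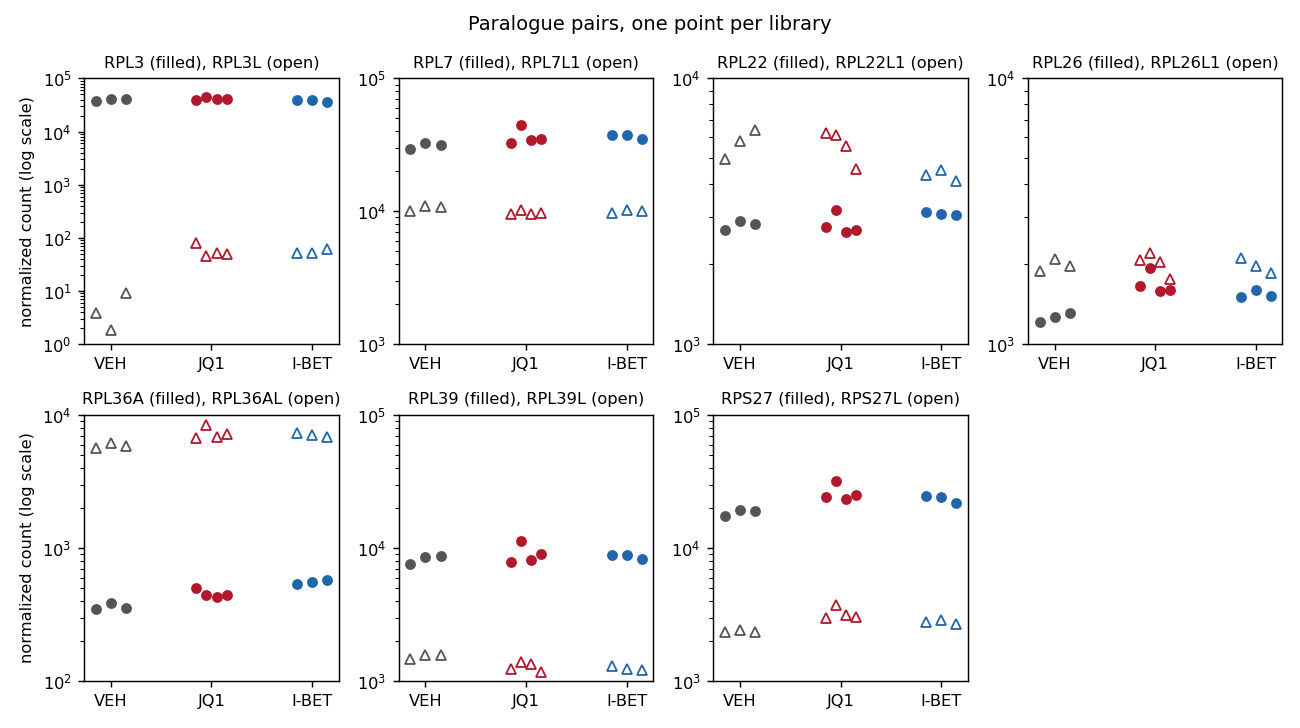
Normalized count (vertical axis, log scale) of 7 paralogue pairs in each library, parent genes as filled circles and L-paralogues as open triangles, grouped by treatment along the horizontal axis. RPL3L rises from under 10 in VEH to between 45.7 and 79.1 in the treated libraries, RPL39L falls in both treated groups, and RPL22L1 is lowest with I-BET 762.

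At the same dose and time, JQ1 raised some of the members more than I-BET 762 did. In the direct comparison 28 of the 81 members were higher with JQ1 (34.6%, against 13.3% of all tested symbols) and 1, RPL36A, was lower (14.0% of all symbols). No member passed the DEG call in limma in either direction, as the largest difference, 0.56, was under 1.5-fold whatever the p-value, while 1.73% of all symbols were higher DEGs and 3.59% lower DEGs with JQ1. Every JQ1 library exceeded every I-BET 762 library for 28 members (background 17.5%) and lay below for RPL36A (background 16.3%). The median difference over the members was 0.14, against 0.00 over all symbols, and under equal totals it was 0.05 against -0.09. The count of 28 fell to 15 without I-BET 762 replicate 23, the library with the lowest value of most members. Where no difference was called, the intervals still allow one: RPL11 differed by 0.04 (-0.11 to 0.19), RPL5 by 0.10 (-0.03 to 0.22) and RPL36AL by 0.03 (-0.11 to 0.17). Besides RPS2 and RPL36, large called differences were RPL13 at 0.56 ± 0.14 (adjusted p = 0.0598 with no intensity trend), RPS28 at 0.40 ± 0.05 and RPL12 at 0.37 ± 0.07.

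Members rich in G and C changed more (see the plot of GC content). Spearman's rho between the GC content of the transcript and the change, over the 80 tested members without RPL3L, was 0.45 with JQ1, 0.25 with I-BET 762 and 0.48 for the difference between them. Over the 14394 tested symbols with a known GC content it was -0.10, -0.12 and -0.02. These are descriptions over genes that share libraries, given with no test. With JQ1 the 25 members under 45% GC had a median change of 0.24, the 32 members from 45% to 52% one of 0.35, and the 23 members from 52% up one of 0.45. The same bins of all symbols had medians of 0.08, 0.01 and -0.07, the opposite order. With the GC trend of each library removed, 66 members (81.5%) rose and 3 fell with JQ1, and 60 (74.1%) rose and 3 fell with I-BET 762. Of the 14394 symbols in that fit, 38.9% rose with JQ1 and 34.2% with I-BET 762, while 5203 and 4651 fell.

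**Figure D4:**
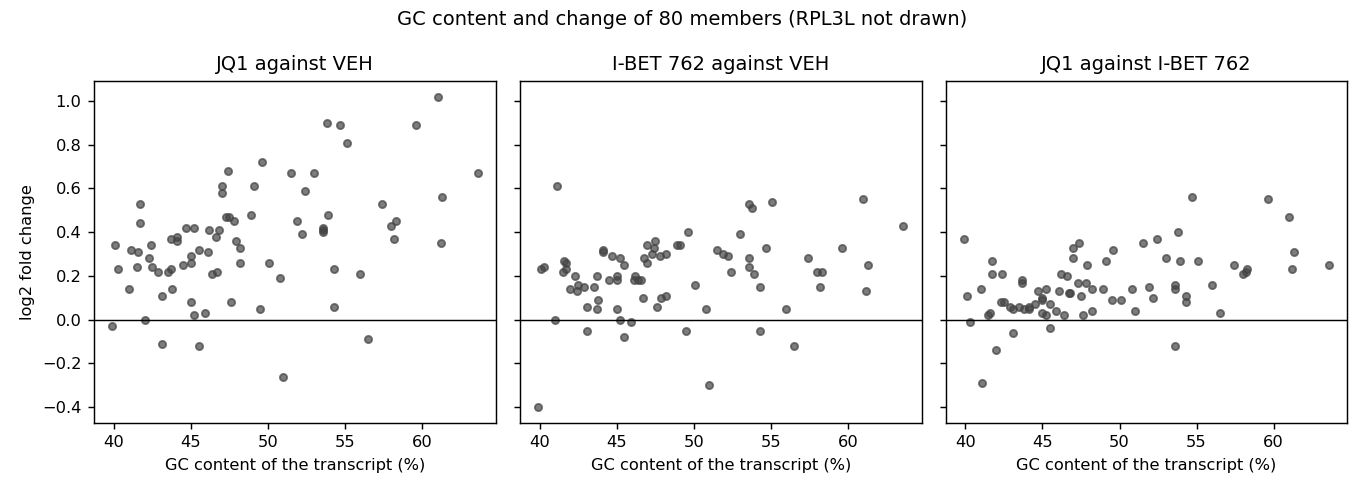
Log2 fold change (vertical axis) against the GC content of the canonical transcript (horizontal axis, %) for 80 tested members, in each of the 3 comparisons. Members with more GC sit higher with JQ1 against VEH (rho 0.45) and with JQ1 against I-BET 762 (rho 0.48), less so with I-BET 762 against VEH (rho 0.25).

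The annotated start did not divide the members in this way. A TOP start was scored at the annotated base alone, and some members scored as without one (RPS28, RPL36AL and RPL17) have runs of C and T beside it. The comparison therefore cannot tell a start of another kind from one annotated a few bases off. The 45 tested members with a TOP start had a median change of 0.36 with JQ1 and 0.21 with I-BET 762, and the 20 with a RefSeq start of another kind 0.31 and 0.24. In both sets 80% rose with JQ1. Other tested symbols with such a start had medians of -0.05 and -0.02 (n = 742), of which 32.2% rose with JQ1. In the 300 bases from 250 before to 50 after the start, searched on both strands, CCGGAAG (an ETS site) was found in 35.3% of the members and 12.2% of all symbols, AAGATGGC (the YY1 site) in 10.3% and 3.52%, TATAAA in 10.3% and 14.0%, and CACGTG (the E-box of MYC) in 7.35% and 8.77%. Among the other tested symbols, a background of expressed genes, the shares were 21.7% for CCGGAAG, 6.15% for AAGATGGC, 8.39% for TATAAA and 12.4% for CACGTG.

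The levels of the members, set per kilobase of the canonical transcript, spanned a wide range in VEH. RPS24 at 69508, RPS2 at 66613 and RPLP0 at 61519 normalized counts per kb were highest, and RPL3L at 2.30, RPS10 at 378 and RPS27L at 385 lowest, with a median of 21997 over the tested members. The order rests on transcript models, of which 20 are longer than 2000 bases and so give low values. The 4 members that were not tested include RPS9 (2 to 16 reads per library) and RPS18 (0 to 4), which growing cells need. All 75-base stretches inside their exons have exact copies elsewhere, on alternate contigs for 62.1% of all stretches of RPS9 and 30.9% of RPS18. RPS10 and RPL17, read at 200 to 351 and 272 to 427 normalized counts, share 84.0% and 96.9% of their exon bases with read-through genes. How the counting treated reads with several matches is not stated, so low counts of these genes do not show low expression. In all, 18 members have fewer than 50% unique stretches. The 46 tested members with at least 80% unique stretches had a median change of 0.35 with JQ1, with 41 higher and 1 lower, and 0.22 with I-BET 762, with 30 higher and 2 lower.

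Genes that work with the RPs were read from lists. The factors that process pre-rRNA and assemble ribosomes moved most like the members: of 71 tested, 58 rose and 3 fell with JQ1 (median 0.41), and 42 rose and 2 fell with I-BET 762 (median 0.21). The 20 that were DEGs with JQ1 were all higher, led by RIOK1, a kinase of late small-subunit maturation, at 1.15 ± 0.05, RRP9, a U3 snoRNP protein, at 1.09 ± 0.07, and RRP12 at 1.05 ± 0.06. With I-BET 762 RIOK1 rose by 0.79, RRP9 by 0.71 and NOP2, an rRNA methyltransferase counted at only 29.1 to 62.9, by 0.81. Under equal totals 43 of the 71 rose and 10 fell with JQ1 (median 0.23, against -0.18 over all tested symbols).

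Of 23 other tested mRNAs with TOP starts, 14 rose and 2 fell with JQ1 (median 0.25), and 8 rose and 1 fell with I-BET 762 (median 0.11). Under equal totals it was 10 and 8 with JQ1 (median 0.07) and 8 and 4 with I-BET 762 (median 0.01). The medians of all tested symbols were then -0.18 and -0.10. TPT1 rose by 0.99 ± 0.07, and the elongation factors EEF1A1 and EEF2 each by 0.77. EEF1D was also called, at 2.08 ± 0.55, from 67.0, 86.0, 115 and 718 normalized counts with JQ1 against 26.4 to 42.6 in VEH, so that JQ1 replicate 20 stood far from the rest. Outside the naming rule, the ribosomal protein genes FAU and RACK1 gave 0.11 ± 0.06 and 0.20 ± 0.06 with JQ1, of which RACK1 passed, and -0.07 and 0.16 with I-BET 762, where neither passed.

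Of 15 tested genes of rRNA transcription, 8 rose and 2 fell with JQ1, and 6 rose and 1 fell with I-BET 762. The median of 0.18 with JQ1 turned to -0.01 under equal totals, where that of all tested symbols was -0.18. The RNA polymerase I subunits POLR1G and POLR1C were the higher DEGs with JQ1, at 0.70 ± 0.05 and 0.63 ± 0.07. RRN3, the factor that brings polymerase I to its promoter, was the lower one at -2.18 ± 0.91, from VEH counts as far apart as 21.3, 102 and 448. Among 16 tested chaperones and importers of RPs, 9 rose and 0 fell with JQ1 and 5 rose and 0 fell with I-BET 762. Their JQ1 median of 0.16 turned to -0.02 under equal totals, beside the same -0.18 of all symbols. The DEGs with JQ1 were TNPO1 at 0.70 ± 0.06 and HEATR3 at 0.69 ± 0.05, and IPO4, counted at only 21.8 to 53.3, at 0.64 ± 0.22. HEATR3 was also a DEG with I-BET 762, at 0.61 ± 0.06.

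Among 17 tested genes that control TOP mRNAs through mTOR, 11 rose and 3 fell with JQ1, and 6 rose and 1 fell with I-BET 762. Under equal totals 4 rose and 6 fell with JQ1, and the medians went from 0.20 and 0.03 to 0.01 and -0.06. Those of all tested symbols were then -0.18 and -0.10. LARP1B, a relative of the TOP-binding LARP1, rose by 1.15 ± 0.06 and 0.95 ± 0.07, and EIF4EBP2, a translation repressor, by 0.84 ± 0.06 and 0.65 ± 0.06. LARP1 itself fell with JQ1, by 0.31 on the log2 scale (SE 0.07). Of the 4 sensors of free RPs and related genes, 1 rose and 2 fell with each inhibitor (medians -0.24 and -0.20). Among these, MDM2 was a lower DEG with JQ1 at -0.76 ± 0.05, and HEXIM1 rose by 1.53 ± 0.05 and 1.05 ± 0.05. No gene of this list was a lower DEG with I-BET 762. MYC, a transcription factor that drives ribosome production, rose by 1.0 ± 0.05 with JQ1 and 0.54 ± 0.06 with I-BET 762.

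Other housekeeping complexes did not move to the same degree (see the plot of gene lists). Of 75 tested mitochondrial RP genes, 32 rose and 17 fell with JQ1 (median 0.06), and 22 rose and 16 fell with I-BET 762 (median 0.00). Of 34 tested proteasome subunit genes, 14 rose and 6 fell with JQ1 (median 0.13), and 10 rose and 5 fell with I-BET 762 (median 0.06). Under equal totals the JQ1 medians of the mitochondrial and proteasome lists turned to -0.13 and -0.05, while that of all tested symbols was -0.18. Of 19 tested cytosolic aminoacyl-tRNA synthetase genes, 10 rose and 4 fell with each inhibitor (medians 0.20 and 0.17). Under equal totals 8 rose and 8 fell with each. Of all 14839 symbols, 3537 then rose and 6904 fell with JQ1, and 3365 rose and 5664 fell with I-BET 762. These counts are descriptions, and the difference between the lists was not tested. The 173 tested symbols of RP pseudogenes had a median of 0.24 with JQ1 and 0.17 with I-BET 762, with 49 higher and 7 lower, and 28 higher and 1 lower. Whether their reads came from the parent mRNAs was not tested.

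**Figure D5:**
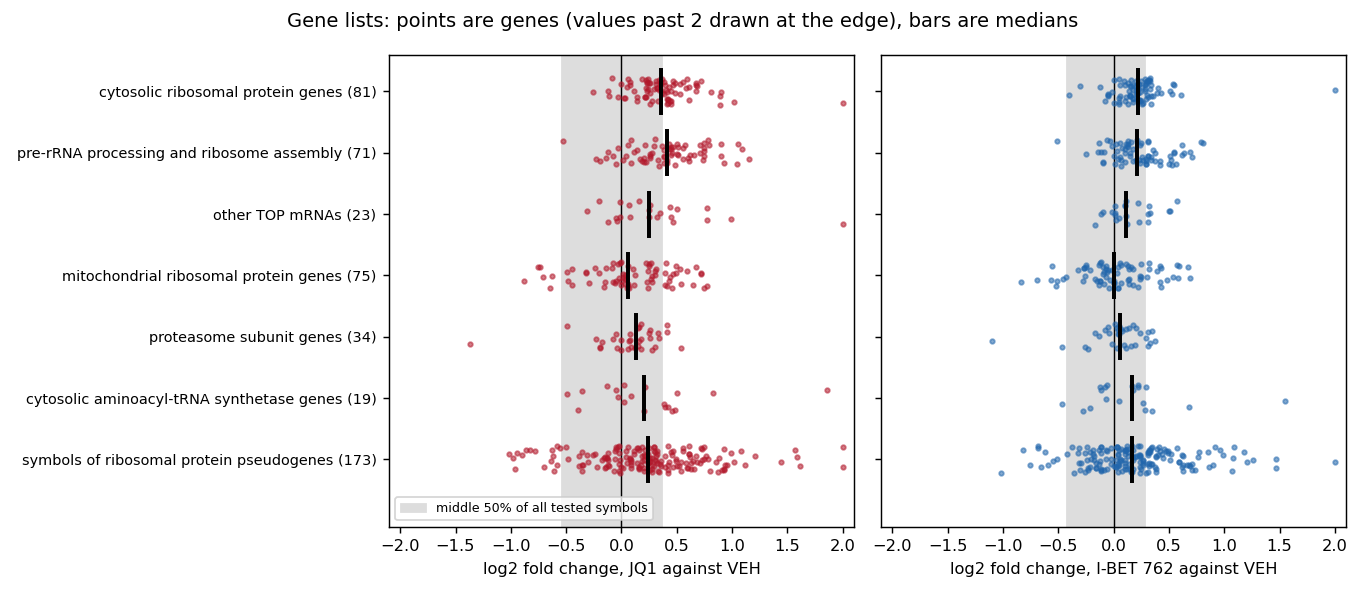
Log2 fold change with JQ1 (left) and I-BET 762 (right) of the tested genes of 7 lists, 1 point per gene, with medians as black bars and the middle 50% of all tested symbols in grey. The medians of the cytosolic ribosomal protein genes (0.36 and 0.22) and of the assembly factors (0.41 and 0.21) lie near the upper edge of the grey band or above it, and that of the mitochondrial genes (0.06 and 0.00) near 0.

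Reads on genes numbered 35564586 to 39658989 per library, so counting error is small for most members. It is larger for those with few reads, such as RPL17, RPL36A, RPS10, RPL3L and the untested ones. In a library with 0 reads of a gene, the true level could still be worth 3 reads, or 2.73 to 3.30 normalized counts by library, a limit for counting error only. Of the 8 smooth muscle markers, 7 had a row in the table, and MYH11, with no row, could not be read. In VEH the 7 ranged from ACTG2 at 0.925 to 1.94 normalized counts to CALD1 at 9020 to 9740. ACTA2, DES, CNN1, TAGLN and CALD1 were lower in every treated library than in VEH, with TAGLN at 1570 to 1650 in VEH and 108 to 165 in the treated libraries. SMTN did not fall, at 2130 to 2570 in VEH, 2340 to 2880 with JQ1 and 2570 to 2740 with I-BET 762, and ACTG2 was near 0 throughout. PECAM1, VWF, CDH5, PTPRC, CD68 and LYZ, markers of endothelial and immune cells, reached at most 4.06, while CD14 was at 17.7 to 37.0 and CD3E had no row. Of the epithelial markers, KRT19 went from 740 to 742 in VEH to 185 to 274 in the treated libraries and KRT18 from 278 to 295 to 166 to 218, with KRT8 and EPCAM also lower in every treated library and CDH1 at 0.984 to 13.7 throughout. Of the mesenchymal markers, COL1A1 (132 to 217 in VEH, 9.79 to 39.1 treated) and COL1A2 were lower and VIM and FN1 higher in every treated library. The part of the smooth muscle, epithelial and mesenchymal markers in the result was not tested. In bulk RNA, a change in the amount of RNA per cell cannot be told apart from a change of these mRNAs relative to the rest.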

How the data were processed

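Per the labels and the study's methods, RNA was isolated with Trizol, strand-specific total-RNA libraries were sequenced, reads were trimmed with Trimmomatic after FastQC 0.73, mapped to hg38 with HISAT2 2.2.1 and counted with featureCounts 2.0.3 on Gencode V41, and the authors scaled the counts by DESeq2 and dropped outlying samples. What they deposited is a table on the log2 scale, the logarithm of each symbol's normalized count after adding 1. Undoing the log gave whole multiples of 1 step per library for 99.74% to 99.77% of the values (tolerance 0.02), and so the reads and the size factors. VEH replicate 16 and I-BET 762 replicate 24 had no column and were not analysed here. The strand setting, the treatment of reads with several matches and the contigs in the index are not given in the sources used here.

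Symbols with a normalized count of at least 10 in at least 3 libraries were tested with limma 3.58.1 (R 4.3.3), with the 10 libraries in 1 fit, an intensity trend and Benjamini-Hochberg adjustment per comparison, and the code was tested on simulated data. Members passed the test when the adjusted p-value was under 0.05, and were DEGs if they also moved over 1.5-fold. SEs and 95% intervals are limma's. Genes were placed on Gencode V44 (GRCh38), where the 75-base stretches of each member were looked up in the genome. Start sequences are RefSeq's. Tables were made with Python 3.11.15, pandas 2.3.3 and scipy 1.17.1.

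The members, the gene lists and the tests were chosen with earlier results of these data known. Named were members that were DEGs, the 5 highest and 5 lowest changes with each inhibitor, L-paralogues with their parents, the stalk, RPSA, RPL5, RPL11, RPS6 and RPS19, the 3 highest and 3 lowest levels, members with no unique stretch, and up to 3 DEGs each way of the other lists with FAU and RACK1. A few genes under this rule are not reported here by name, though the counts and medians include them. Other genes (RPL17, RPS9, RPS18, EEF2, LARP1, TAGLN and the members with no call) were named after their values were seen. Alternatives were pseudocounts of 0.5 and 5, other filters, equal totals, equal upper quartiles, no intensity trend, the 2 groups alone, limma-voom on the recovered reads, each library left out, a 2-fold threshold, and members with at least 80% unique stretches. Removing each library's GC trend was added after seeing the data.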

Additional observations from a re-analysis of the deposited data

Results flagged for a closer look

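In the JQ1 group, the only one with 4 libraries, 37 sets of values (36 named members and the share of counts) were checked for a library far from the other 3 by Dixon's ratio, and 3 were past the 95% limit, where chance gives about 1 in 20. RPL11 had a ratio of 0.872, with 43478 normalized counts in replicate 18 against 35136 to 36200 in the others. RPS24 had a ratio of 0.899, also from replicate 18, at 49169 against 37861 to 39005. RPL3L had a ratio of 0.841 from replicate 17, at 79.1 against 45.7 to 51.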

How the results depend on the processing

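The median change of the members stayed above 0 in all 3 comparisons under every alternative, and it moved by more than the spread between libraries with equal totals alone, to 0.17 with JQ1, 0.12 with I-BET 762 and 0.05 for JQ1 against I-BET 762. Leaving out each library gave medians of 0.32 to 0.39, 0.19 to 0.26 and 0.08 to 0.17. The 14 DEGs with JQ1 became 6 with equal totals, 9 among members with at least 80% unique stretches, 2 at a 2-fold threshold and 11 to 17 with a library left out. The 2 DEGs with I-BET 762 became 1 with a mean count of at least 100 (RPL3L then fails the filter), equal totals, unique members or a 2-fold threshold, and 1 to 3 with a library left out (1 without VEH replicate 13). The 0 DEGs of the direct comparison became 0 to 2 (1 without JQ1 replicate 18, 2 without JQ1 replicate 20). Members rising at an adjusted p-value under 0.05 numbered 41, 30 and 16 among those with unique stretches (46 tested), 33 with I-BET 762 under equal totals, and 17 in the direct comparison with no intensity trend. With a library left out they numbered 61 to 67, 36 to 59 and 15 to 39 (15 without I-BET 762 replicate 23).

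The 2 members falling with JQ1 became 1 with all symbols above 0, no trend, the 2 groups alone or unique members, 10 with equal totals, and 1 to 4 with a library left out (1 without VEH replicate 14 or 15 or JQ1 replicate 17 or 19, 4 without JQ1 replicate 18). The 2 falling with I-BET 762 became 6 with equal totals and were 2 with each library left out. The 1 lower in the direct comparison became 3 with equal totals, 2 with the GC trend removed, 0 among unique members and 0 to 2 with a library left out (0 without I-BET 762 replicate 23, 2 without JQ1 replicate 18). Named members that turned direction and then passed the test were RPL22 at -0.18, RPL26L1 at -0.16, RPL3 at -0.13 and RPSA at -0.14, with JQ1 under equal totals. Among single members, 2136 values kept their call or lack of one, 45 lost and 32 gained a call. The share of counts was 5.6%, 6.76% and 6.20% in VEH, JQ1 and I-BET 762 without the 100 most abundant other symbols in the total, 2.51%, 2.90% and 2.74% on the unique members, and 4.61% to 4.71%, 5.30% to 5.5% and 4.95% to 5.14% with a library left out. With fewer members or samples, fewer calls follow by construction. The cause of the other moves was not tested.

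No paired analysis was possible because the replicate numbers 13 to 24 are all different. With 3 or 4 libraries a group, small changes such as those of RPSA and RPS24 could not be told from 0.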
